A study of Mus musculus with 20 samples.

Results

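Ferritin and iron handling genes were followed through growth cones and somata of mouse subcerebral projection neurons. The 10 genes, of 55487 in the count table, were the ferritin subunits Fth1 and Ftl1, the uptake genes Tfrc, Trf and Slc11a2, the exporter Slc40a1, the iron regulatory proteins Aco1 and Ireb2, the ferritin cargo receptor Ncoa4 and the iron chaperone Pcbp1. Members were selected on the counts of wild-type (WT) libraries, where Fth1 and Ftl1 had the highest counts in growth cone libraries. The other 8 were added for their known roles in iron handling. The WT compartment values of the members are therefore described here without a test. The other contrasts of these genes were tested, all with earlier results of the same data known.

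The study sequenced RNA of subcerebral projection neurons, the cortical neurons that send axons to the brainstem and spinal cord, from mice at postnatal day 1. Somata came from cortex, and growth cones, the motile tips of growing axons, came from brainstem and spinal cord. The genotype label was WT or Bcl11b KO, Bcl11b being a transcription factor gene of these neurons, and each of the 4 groups held 5 libraries. Strain, the nature of the Bcl11b allele, the sorting method, pooling of animals and any reporter were not given in the sources used here, and nothing in the labels says which libraries came from separate animals. P-values then measure the spread between these libraries, which may in part be technical. RNA input was 1.8 to 3.1 ng for soma libraries and 0.19 to 3.1 ng for growth cone libraries, amplified with a low-input SMART-seq kit.

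Free iron is needed for respiration and harms cells through radical chemistry, so cells keep most spare iron inside ferritin, a hollow shell of heavy (Fth1) and light (Ftl1) subunits. Transferrin (Trf) carries iron in blood and tissue fluid, the transferrin receptor (Tfrc) takes it up, the divalent metal transporter (Slc11a2) moves it out of endosomes, and ferroportin (Slc40a1) exports it. The iron regulatory proteins IRP1 (Aco1) and IRP2 (Ireb2) bind RNA hairpins called iron-responsive elements when iron is scarce: in the 5′ untranslated region (UTR) of ferritin and ferroportin mRNAs they block translation, and in the 3′ UTR of Tfrc mRNA they protect the transcript from decay. Pcbp1 delivers iron to ferritin, and Ncoa4 carries ferritin to the lysosome, where its iron is released.

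The hairpins are shown first because the iron regulatory proteins are known to bind them on ferritin, ferroportin and Tfrc mRNAs. GENCODE M21 transcripts (build GRCm38) were searched, on the transcript strand only, for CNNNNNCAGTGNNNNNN, with the 5 bases on either side of the 6-base loop able to pair (G-U pairs allowed). The loop is in capitals and the sequences are given 5′ to 3′ on the strand of the gene.
Fth1 5′ UTR, chr19:9982731-9982760, plus strand: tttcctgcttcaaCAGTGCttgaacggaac
Ftl1 5′ UTR, chr7:45459779-45459808, minus strand: tgtcttgcttcaaCAGTGTttgaacggaac
Slc40a1 5′ UTR, chr1:45925465-45925494, minus strand: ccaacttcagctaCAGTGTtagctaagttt
Tfrc 3′ UTR, chr16:32631218-32631247, plus strand: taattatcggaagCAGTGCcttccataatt
Tfrc 3′ UTR, chr16:32631597-32631626, plus strand: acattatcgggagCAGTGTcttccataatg
Tfrc 3′ UTR, chr16:32631662-32631691, plus strand: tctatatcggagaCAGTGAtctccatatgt
Tfrc 3′ UTR, chr16:32631709-32631738, plus strand: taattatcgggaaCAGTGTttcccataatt

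The Fth1 and Ftl1 sites share the same 5 paired bases on either side of the loop. They differ at 3 of the 30 bases, T2G, C5T and C19T. Positions are counted from 1 at the 5′ end of the printed site, with the Fth1 base first. T2G and C5T lie outside the searched motif, where pairing was not checked. C19T is the last base of the loop. The site began at base 86 of the transcript Fth1-201 and at base 77 of Ftl1-201. The same motif was present in the 5′ UTR of 31 of 20916 genes with such a region (0.148%) and in the 3′ UTR of 129 of 21039 (0.613%). No match was found in UTRs of Slc11a2, Ireb2, Aco1, Trf, Ncoa4 and Pcbp1, which says only that these letters are not in the annotated windows. An isoform of Slc11a2 is known for an iron-responsive element in its 3′ UTR.

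Library totals ranged from 26382991 to 29323028 counts for WT growth cones and from 21657575 to 27723067 for those labelled KO. Soma libraries reached 18962308 to 36059112 counts (WT) and 35243688 to 51205154 counts (labelled KO). Bcl11b, the targeted gene, did not fall with the KO label. It was counted at 537 to 806 CPM (counts scaled to library size) in WT somata and at 1080 to 1232 CPM in somata labelled KO, and at 72.4 to 122 and 69.9 to 141 CPM in WT growth cones and growth cones labelled KO. Genotypes are named by their labels for this reason. Levels below are CPM with TMM scaling over all 20 libraries, numbered by the experiment in the labels, and errors are SD over 5 libraries unless given as SE.

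The ferritin mRNAs had the highest counts of all genes in the growth cone libraries. Fth1 (ENSMUSG00000024661.7, chr19:9980598-9985098, plus strand), the subunit that oxidises iron for storage, was counted at 19899, 23979, 22310, 19674 and 22844 CPM in WT growth cones 7 to 11. In growth cones 7 to 11 labelled KO it was counted at 30132, 15917, 27248, 13197 and 24947 CPM. Libraries 7, 9 and 11 labelled KO lay above every WT growth cone library and libraries 8 and 10 below every one, so the WT range sat inside the KO range.

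Soma levels of Fth1 were 986, 720, 887, 890.3 and 877 CPM in WT 12, 14, 22, 25 and 26. In somata labelled KO, numbers 14, 15, 22, 25 and 26, they were 764, 723, 799, 829 and 809 CPM. Soma groups overlapped with each other, and growth cone and soma libraries of either genotype did not. Under the KO label, growth cones exceeded somata by 4.91 ± 0.25 (SE) on the log2 scale (edgeR quasi-likelihood test, Benjamini-Hochberg adjusted p = 1.92e-07 over 15410 genes). In WT the log2 difference was 4.68, given as a description. The choice of Fth1 and Ftl1 used the WT libraries. Libraries labelled KO share experiment numbers with them, so the contrasts of compartments may not be independent. The p-values of Fth1 and Ftl1 under the KO label are therefore no separate support for the difference.

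Ftl1 (ENSMUSG00000050708.16, chr7:45457944-45459884, minus strand) encodes the light subunit, which supports the mineral core. It was counted at 25814, 26081, 25282, 22394 and 19808 CPM in WT growth cones 7 to 11, and at 33178, 17152, 31022, 16683 and 22383 CPM in those labelled KO. Libraries 7 and 9 labelled KO were again above the WT range and 8 and 10 below it, as for Fth1. WT somata held 1403 to 1959 CPM and somata labelled KO 1499.7 to 1696 CPM. Growth cones labelled KO exceeded somata labelled KO by 4.0 ± 0.22 (SE; adjusted p = 2.95e-07) on the log2 scale, and the WT difference was 3.95.

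By raw counts Ftl1 ranked 1 and Fth1 ranked 2 among all genes in growth cone libraries 7 to 10 of both genotypes, and the order was swapped in library 11 of each genotype. In somata Ftl1 ranked 29 to 48 and Fth1 ranked 94 to 160. Together the ferritins took 4.55 to 5.11% (WT) and 3.46 to 6.07% (labelled KO) of all counts of a growth cone library. Of a soma library they took 0.206 to 0.284% (WT) and 0.211 to 0.230% (labelled KO). Spread between growth cone libraries was wider under the KO label: the coefficient of variation of Fth1 was 8.67% in WT and 33.0% in KO-labelled growth cones, and that of Ftl1 was 11.3% and 31.9%. This difference in spread was not tested.

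**Figure D1:**
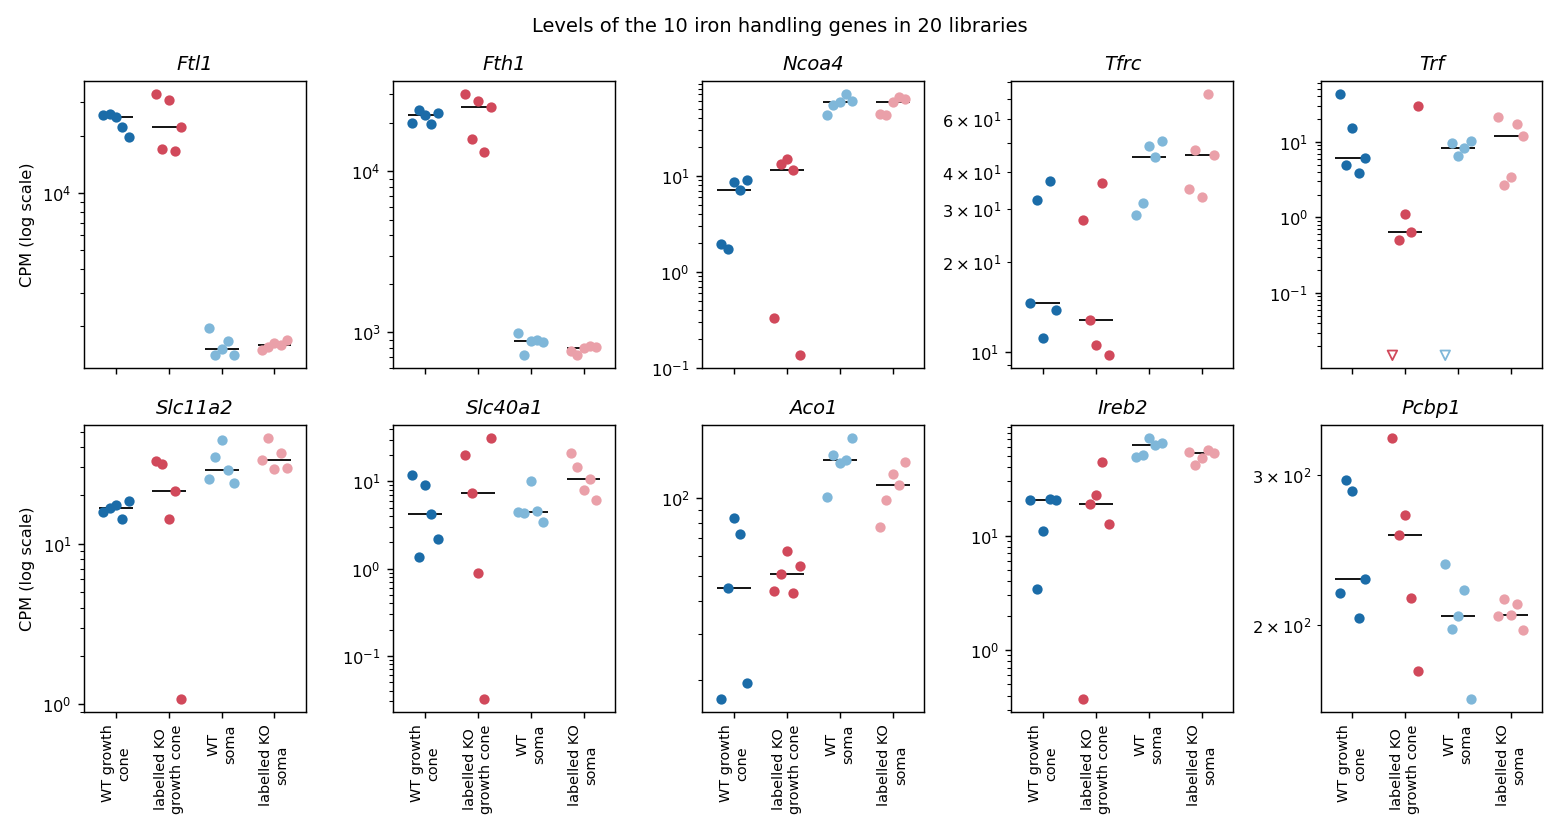
CPM of each of the 10 genes on a log axis in the 20 libraries. Points are libraries in order of their number, black lines are medians and open triangles are libraries with 0 counts. Fth1 and Ftl1 sit far higher in both growth cone groups than in somata, while Ncoa4, Tfrc, Aco1 and Ireb2 have lower growth cone medians.

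Markers of other cell types were also counted in growth cone libraries, most lists at higher sums than in somata. RNA of other cells may therefore bear on any growth cone against soma value, which was not tested. The summed level of 12 oligodendrocyte markers, a cell type rich in ferritin and transferrin, was 627 to 2672 CPM in growth cones against 64.4 to 121 CPM in somata. Mbp alone made up 206 to 1904 CPM in WT growth cones and 345 to 1229 CPM in those labelled KO. Only Mog had lower growth cone medians, at 0.205 against 0.471 CPM in WT and 0.0371 against 0.811 CPM under the KO label. Choroid plexus markers summed to 243 to 427 CPM in growth cones against 0.105 to 2.22 CPM in somata, where Kl and Otx2 were at 0 in WT. Ttr alone made up 225 to 390 CPM of the growth cone sums, and the WT growth cone medians of Kl, Aqp1, Clic6 and Folr1 were 0, 0.102, 0.177 and 0.401 CPM. Those of Otx2, Kcne2 and Sostdc1 were 4.02, 4.78 and 6.71 CPM, where the WT soma medians were 0. Erythroid markers summed to 208 to 554 CPM against 1.22 to 18.6 CPM, with the embryonic globins Hbb-bh1 and Hbb-y at 0 in all groups.

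Astrocyte markers summed to 344 to 886 CPM in growth cones against 15.6 to 203 CPM in somata, and vessel and meninges markers to 118 to 251 and 1.84 to 59.4 CPM. Microglia and macrophage markers, which overlapped between compartments, summed to 48.1 to 132 CPM in growth cones against 6.80 to 107 CPM in somata. Hindbrain and spinal cord markers, of the regions that growth cones were taken from, summed to 48.4 to 197 CPM in growth cones and to at most 2.13 CPM in somata, where 5 of 12 (WT) and 8 of 12 (labelled KO) were at 0. Subcerebral projection neuron markers summed to 761 to 1001 CPM in growth cones against 1901 to 2285 CPM in somata. Members of that list went opposite ways: in WT, Pcp4 was at 179 to 395 CPM in growth cones against 26.6 to 58.9 CPM in somata, and Ldb2 at 65.8 to 156 against 538 to 730 CPM. Cortical excitatory neuron markers overlapped between compartments, at 765 to 1586 CPM in growth cones and 826 to 1385 CPM in somata.

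The part of other cells in the ferritin values was not tested. In bulk libraries a change in the share of cells or cell parts and a change in RNA per cell cannot be told apart, and compartment is also tied to tissue and to RNA input in this design.

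**Figure D2:**
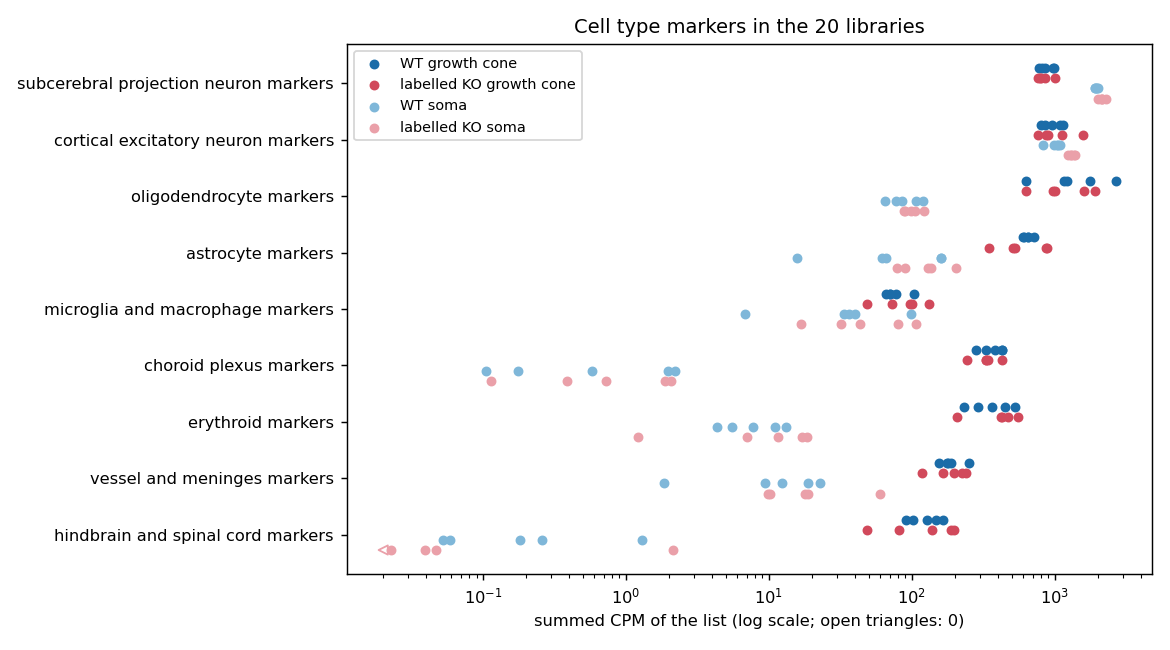
Summed CPM of 9 lists of cell type markers on a log axis, 1 point per library, coloured by group. Oligodendrocyte, choroid plexus, erythroid, astrocyte, vessel and hindbrain lists are higher in growth cone libraries, and subcerebral projection neuron markers are higher in soma libraries.

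The balance of the subunits also differed between compartments. The ratio of Fth1 to Ftl1 counts was 0.771, 0.919, 0.882, 0.879 and 1.15 in WT growth cones 7 to 11 and 0.908, 0.928, 0.878, 0.791 and 1.11 in those labelled KO. It was 0.503, 0.512, 0.586, 0.533 and 0.625 in WT somata 12, 14, 22, 25 and 26, and 0.509, 0.468, 0.489, 0.519 and 0.477 in somata 14, 15, 22, 25 and 26 labelled KO. Every growth cone library thus had relatively more heavy subunit mRNA than every soma library, and library 11 had the highest ratio in both genotypes.

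Per kilobase of exon the mean log2 ratio was -1.50 ± 0.18 in growth cones labelled KO and -2.40 ± 0.06 in somata labelled KO, a difference of 0.90. An exact permutation test (two-sided) gave p = 0.00794, the smallest this design allows, and 0.0238 after adjustment over the 3 ratio tests. In WT the values were -1.50 ± 0.21 and -2.24 ± 0.13, a difference of 0.73 given without a test. Between genotypes the ratio differed by 0.01 in growth cones (exact permutation p = 0.913) and by -0.16 in somata (exact permutation p = 0.0397, adjusted 0.0595), so neither passed after adjustment. The exon length of Fth1 in the annotation, 3469 bases, includes long alternative transcripts beside Fth1-201 (929 bases), so the ratio per kilobase is a scale for comparison between libraries and no molar ratio.

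**Figure D3:**
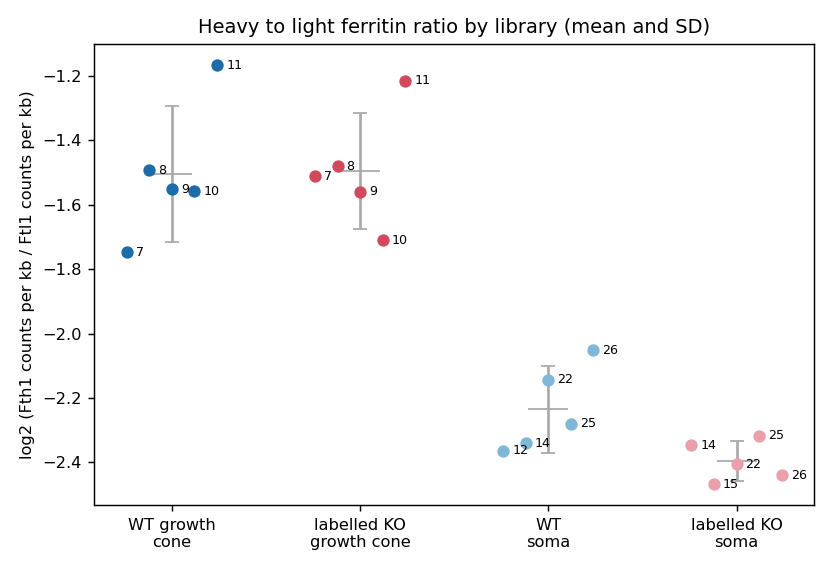
Log2 ratio of Fth1 to Ftl1 counts per kilobase by library, with library numbers beside the points and the mean and SD of each group in grey. All 10 growth cone libraries lie above all 10 soma libraries.

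Copies of the ferritin genes were counted far less than their parents, and the 4 with more than 9 counts in a library stood higher in growth cones, with no overlap between compartments. Of 14 other annotated genes whose symbol begins with Fth or Ftl, the 9 of the Fthl17 family had 0 counts in all libraries and Fth-ps2 at most 9 counts in any. Fth-ps3 had 5.90 to 15.6 CPM in growth cones against 0.0574 to 0.546 CPM in somata, and Ftl1-ps2 had 68.1 to 192 against 0.23 to 8.72 CPM. Ftl1-ps1 was counted at 294 to 712 CPM in growth cones against 21.9 to 31.1 CPM in somata, and Ftl2-ps at 203 to 461 and 20.5 to 28.7 CPM. The Ftl1-ps1 site of the iron-responsive element has 0 differences from that of Ftl1 over 30 bases. Ftl1 shared stretches of 50 bases with 15 other genes, whose counts came to 3.61 to 4.81% of those of Ftl1, and Fth1 with 1, at 0.0393 to 0.368%. Counts of these copies and of Ftl1 cannot be told apart with certainty, since how multi-mapped reads were counted is not given in the sources used here. In the annotation 34.6% of Ftl1 exon bases overlap other genes, Gm22133 on the same strand and Gm10252 on the opposite strand.

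Ncoa4 (ENSMUSG00000056234.15, chr14:32159865-32179855, plus strand), the receptor that takes ferritin to lysosomes, was lower in growth cones. In growth cones 7 to 11 labelled KO it was counted at 0.332, 13.3, 14.8, 11.4 and 0.135 CPM, against 44.3, 42.9, 58.7, 65.6 and 63.5 CPM in somata 14, 15, 22, 25 and 26 labelled KO. Libraries 7 and 11 held 8 and 3 counts, and no growth cone library reached the lowest soma library. The log2 fold change was -2.70 ± 0.96 (SE; adjusted p = 0.0437). The call was lost in 11 of 17 alternatives, with adjusted p up to 0.0775, among them each fit without 1 library except growth cone 7 or 11. WT growth cones held 1.71 to 9.12 CPM and WT somata 43.1 to 70.6 CPM, a log2 difference of -3.29.

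Among the uptake genes, Tfrc (ENSMUSG00000022797.16, chr16:32608920-32632794, plus strand) had 27.6, 12.8, 10.5, 36.8 and 9.73 CPM in growth cones 7 to 11 labelled KO. Somata labelled KO held 35.0, 47.2, 32.9, 72.8 and 45.7 CPM. Growth cone 10 lay above the lowest soma libraries, and the other 4 lay below all of them. Tfrc fell by a log2 fold change of -1.19 ± 0.43 (SE; adjusted p = 0.0458). This missed the threshold in 12 of 17 alternatives, among them 8 of the 10 fits without 1 library (all but those without growth cone 7 or 10), with the highest adjusted p, 0.122, without soma 25. In WT Tfrc was counted at 11.1 to 37.4 CPM in growth cones against 28.6 to 50.6 CPM in somata, a log2 difference of -0.86.

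Trf (ENSMUSG00000032554.15, chr9:103204001-103230444, minus strand), whose product is made in brain largely by oligodendrocytes and choroid plexus, varied the most. Its level in growth cones 7 to 11 was 42.8, 4.96, 15.2, 3.82 and 6.11 CPM in WT and 0, 0.507, 1.11, 0.641 and 29.6 CPM under the KO label. The 0 counts in growth cone 7 labelled KO allow up to 0.125 CPM, for counting error only. WT soma 12 also held 0 counts (up to 0.0941 CPM), while the other WT somata held 6.51 to 10.1 CPM and somata labelled KO 2.68 to 21.3 CPM.

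A single growth cone library carried most Trf counts of its group. Under the KO label growth cones differed from somata by a log2 fold change of -0.76 ± 1.42 (SE; adjusted p = 0.709), and -4.24 without growth cone 11 (adjusted p = 0.0185). Slc11a2 (ENSMUSG00000023030.16, chr15:100387898-100425072, minus strand) had 1.08 to 32.6 CPM in growth cones labelled KO, with the lowest value in library 11, and 29.0 to 45.8 CPM in somata labelled KO. Its log2 fold change of -0.71 ± 0.63 (SE) had an adjusted p of 0.407. In WT growth cones Slc11a2 was steady, at 14.3 to 18.5 CPM, all below the 23.8 to 44.1 CPM of WT somata.

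Slc40a1 (ENSMUSG00000025993.10, chr1:45908068-45926523, minus strand), the only known iron exporter, was low in all groups. Growth cones 7 to 11 held 11.8, 1.35, 9.01, 4.25 and 2.21 CPM in WT and 19.9, 7.43, 0.901, 0.0321 and 31.7 CPM under the KO label. Library 10 labelled KO held 1 count of Slc40a1 and library 11 held 704. The log2 fold change against somata labelled KO was 0.07 ± 1.10 (SE; adjusted p = 0.969), and its sign turned in 7 of 17 alternatives.

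Both iron regulatory proteins had lower growth cone medians. Aco1 (ENSMUSG00000028405.9, chr4:40143081-40198338, plus strand), an enzyme that becomes IRP1 when it loses its iron-sulfur cluster, was counted at 44.1, 51.0, 62.8, 43.1 and 54.7 CPM in growth cones 7 to 11 labelled KO. The somata labelled KO held 77.8, 98.4, 125, 112 and 138 CPM, all above the growth cones. The log2 fold change was -1.03 ± 0.20 (SE; adjusted p = 0.00156), and the call held in all 17 alternatives run, with adjusted p up to 0.0138. In WT, growth cones held 16.8 to 84.2 CPM and somata 101 to 171 CPM.

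Ireb2 (ENSMUSG00000032293.8, chr9:54863789-54912530, plus strand) had 0.374, 19.0, 22.6, 44.3 and 12.7 CPM in growth cones 7 to 11 labelled KO and 41.2 to 56.4 CPM in somata labelled KO. Growth cone 10 reached the soma range and the others did not. The log2 fold change of -1.28 ± 0.74 (SE) had an adjusted p of 0.196. It passed in 2 of 17 alternatives, without growth cone 7 (-1.01, adjusted p = 0.0397) and with limma-voom (-2.09, adjusted p = 0.0464). WT growth cones held 3.43 to 21.04 CPM and WT somata 48.4 to 72.1 CPM, a log2 difference of -1.92.

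Pcbp1 (ENSMUSG00000051695.6, chr6:86524492-86526321, minus strand), the chaperone that hands iron to ferritin, had 332, 255, 269, 215 and 177 CPM in growth cones 7 to 11 labelled KO and 197 to 215 CPM in somata labelled KO. The groups overlapped, and the log2 fold change of 0.35 ± 0.16 (SE) had an adjusted p of 0.109. It passed under upper quartile scaling (0.55, adjusted p = 0.0217), under library totals alone, and without growth cone 11. WT growth cones held 204 to 296 CPM and WT somata 164 to 236 CPM.

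Of the 10 members, 2 rose (Fth1 and Ftl1) and 3 fell (Aco1, Ncoa4 and Tfrc) in growth cones labelled KO against somata labelled KO. Among all 15410 genes tested, 21.6% rose and 17.0% fell. The groups did not overlap for 4 members, against 36.8% of all genes. Under other scalings the members called were 2 higher and 2 lower (RLE) and 3 higher and 1 lower (upper quartile, and library totals alone). The median log2 fold change of the members was -0.73, and that of all genes 0.11. All 10 members passed the filter on low counts in each comparison. In the WT contrast, which the choice of members used, 23.1% of 15128 genes rose, 19.7% fell and 37.9% did not overlap, and 6 of the 10 members did not overlap. The contrast under the KO label may not be independent of the WT contrast, since experiment numbers are shared.

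**Figure D4:**
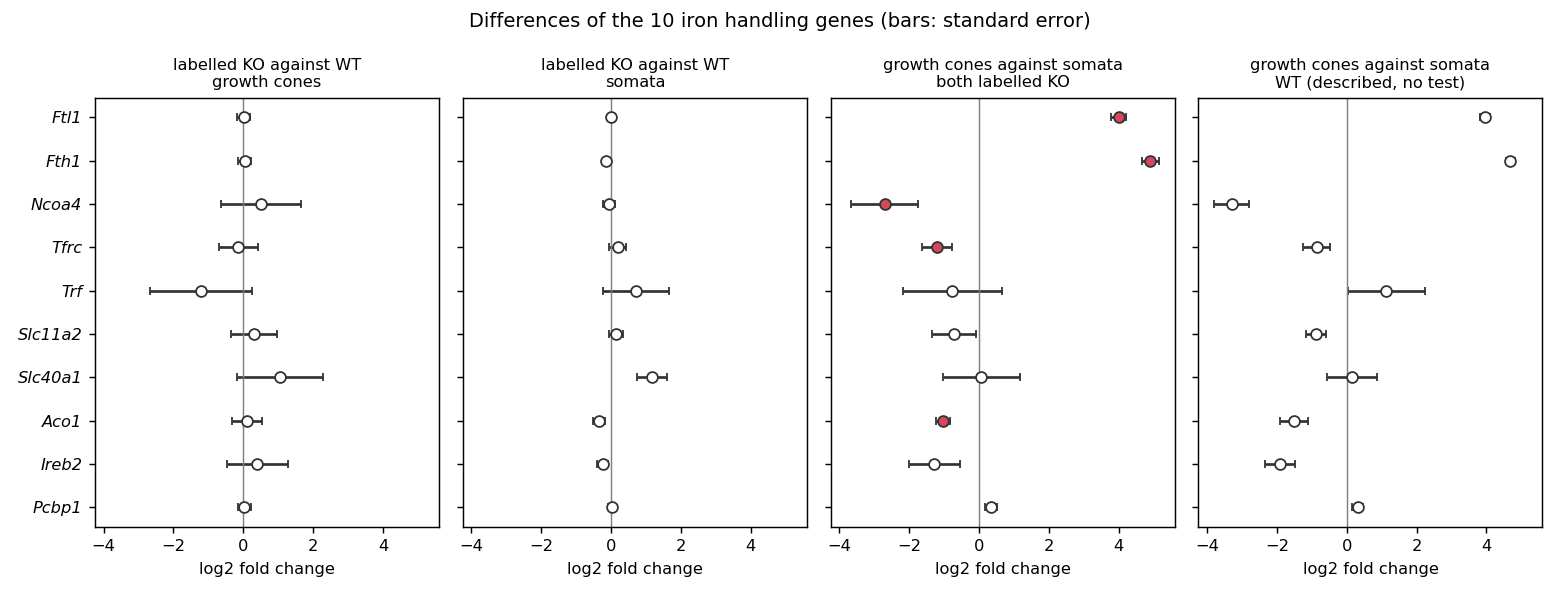
Log2 fold changes with standard errors of the 10 genes in 4 comparisons. Filled points passed an adjusted p of 0.05, and the WT compartment panel is a description with no call marked. In both genotype panels no point is filled, and in the KO-labelled compartment panel Ftl1 and Fth1 are filled to the right and Ncoa4, Tfrc and Aco1 to the left.

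Per kilobase of exon the order of group medians began with Ftl1, Fth1, Pcbp1 and Aco1 in all 4 groups. The libraries of each of these 4 did not overlap with those of the next gene by median. Aco1 in WT growth cones still went down to 3.75 CPM per kb. That lay below the highest libraries of Tfrc (6.04) and Trf (12.9), which come further down the order. In WT growth cones the medians were 18867, 6431, 124 and 10.03 CPM per kb, and in WT somata 1129.9, 256, 112 and 31.3 CPM per kb. Below Aco1, neighbours in the order overlapped in their libraries, with the exceptions of Trf above Ncoa4 in WT growth cones and Slc11a2 above Trf in WT somata. Slc40a1 was last in both soma groups and in WT growth cones, and Trf was last in growth cones labelled KO.

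No member passed the test between genotypes. In growth cones 0 of 10 members passed and 0 had an unadjusted p under 0.05, where 0% of 15419 genes passed with edgeR and 329 had an unadjusted p under 0.05. DESeq2 and limma-voom also called 0 members. No member separated the growth cone groups, against 0.532% of all genes. The log2 fold changes of Fth1 and Ftl1 were 0.04 ± 0.19 and 0.02 ± 0.19 (SE), and those of the other members lay between -1.21 ± 1.46 (Trf) and 1.04 ± 1.23 (Slc40a1). The standard errors of Trf, Slc40a1, Ncoa4 (1.14) and Ireb2 (0.88) leave room for large differences that were not detectable with these libraries.

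In somata 0 of 10 members passed, where 0.731% of 14911 genes did. No member separated the groups, against 3.17% of all genes. Slc40a1 was the 1 member with an unadjusted p under 0.05, where 1278 of all genes tested (8.57%) had one. It was counted at 4.42, 4.37, 9.99, 4.58 and 3.45 CPM in WT somata and at 21.3, 14.6, 7.91, 10.6 and 6.06 CPM in somata labelled KO, and 1 WT library lay within the KO-labelled range. Its log2 fold change was 1.17 ± 0.43 (SE; adjusted p = 0.405). Fth1 differed by -0.16 ± 0.09 (SE; adjusted p = 0.741), Ftl1 by -0.0019 ± 0.097 and Aco1 by -0.34 ± 0.17 (adjusted p = 0.645).

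The interaction of genotype with compartment was fitted over all 20 libraries. It passed for 0 of 10 members, at 0.0397% of 17645 genes. An unadjusted p under 0.05 was found for 0 members and for 1231 of all genes tested. The interaction estimate was 0.19 ± 0.23 (SE) for Fth1, and over the members it ran from -1.91 ± 1.90 (Trf) to 0.62 ± 0.89 (Ireb2).

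The other genes of iron handling were taken from lists of 85 genes with the members left out, from which 1 listed gene had been removed after its values were seen. Between growth cones and somata labelled KO, 69 were tested, 18 rose and 10 fell, with a median log2 fold change of 0.41 (0.11 over all genes). In WT, 68 were tested, 20 rose and 12 fell, with a median of 0.29 (0.07 over all genes). The comparisons of compartments in WT and under the KO label share no library. They do share 5 growth cone and 4 soma experiment numbers, so they may not be independent. The shares that rose, fell or did neither are near the background shares above.

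Iron-sulfur cluster assembly, the pathway that builds the cofactor on which Aco1 depends, had 13 of 22 tested genes higher and 1 lower in growth cones labelled KO, and 13 higher and 3 lower in WT. Shares over all genes were 21.6% higher and 17.0% lower under the KO label, and 23.1% higher and 19.7% lower in WT. Bola3, which hands clusters to mitochondrial enzymes, was counted at 146 ± 45.1 CPM in growth cones against 9.07 ± 2.34 CPM in somata labelled KO, a log2 fold change of 4.09 (adjusted p = 2.10e-06). Bola2, a cytosolic partner in cluster transfer, was at 222 ± 83.2 and 40.1 ± 3.85 CPM (2.55). The scaffold protein gene Iscu was at 127 ± 24.5 and 41.3 ± 5.67 CPM (1.70). Mms19, which targets clusters to DNA repair and replication enzymes, fell (log2 -1.61), at 13.0 ± 7.80 and 41.7 ± 9.41 CPM.

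In WT the same list was led by Bola3 (180 ± 41.3 and 6.30 ± 0.482 CPM, log2 4.88), Ciao2b (218 ± 47.1 and 45.6 ± 4.31 CPM) and Isca2 (110 ± 14.6 and 22.5 ± 5.03 CPM), with Mms19, Narfl and Ciao1 lower. Heme genes were mixed. Of 16 tested under the KO label, 2 rose and 4 fell, beside 21.6% and 17.0% of all genes. Slc48a1, a transporter that moves heme out of endosomes and lysosomes, rose from 132 ± 18.5 to 820 ± 212 CPM (log2 2.71, adjusted p = 1.49e-06), and Alad rose by 0.77. The synthesis genes Urod (-1.91) and Alas1 (-1.76) and the heme oxygenase Hmox2 (-1.17) were lower. In WT, 1 of 15 rose (Slc48a1) and 2 fell (Alas1 and Fech), while each of the other 3 scalings gave 2 higher and 1 lower. Of all genes in WT, 23.1% rose and 19.7% fell.

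Among 7 tested genes of iron chaperones, storage and sensing, Pcbp2, a relative of Pcbp1 that also carries iron, was counted at 169 ± 52.8 CPM in growth cones against 21.2 ± 2.20 CPM in somata labelled KO (log2 3.08), and at 134 ± 57.6 and 29.7 ± 2.86 CPM in WT. Epas1, encoding the hypoxia factor HIF-2 alpha, rose from 0 to 43 counts per soma library to 123 to 300 counts per growth cone library under the KO label (log2 5.21). In WT it had 0 to 3 counts in somata and 97 to 928 in growth cones. Hif1a was lower in both genotypes (-1.56 under the KO label and -1.47 in WT), and Pcbp3 and Fbxl5 were lower in WT (-0.84 and -0.87). Epas1 is known from vessels, whose markers were also higher in growth cones (118 to 251 against 1.84 to 59.4 CPM), and the part of vessel RNA in the Epas1 value was not tested.

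For import and reduction, 0 of 9 tested genes rose and 1 fell under the KO label, Mcoln1, a lysosomal channel that passes iron (22.1 ± 14.1 against 106 ± 11.9 CPM). In WT, 2 of 8 rose, the second transferrin receptor gene Tfr2 (15.7 ± 10.4 against 2.31 ± 1.40 CPM) and the mitochondrial iron carrier Slc25a28 (36.6 ± 19.3 against 12.6 ± 3.90 CPM), and Mcoln1 fell. Of the export and hepcidin genes, 0 of 3 passed under the KO label, and 1 of 4 in WT, Bmp6 (17.7 ± 7.66 against 1.20 ± 1.19 CPM). NRF2 targets were listed because NRF2 is known to drive ferritin transcription. Of 11 tested, 0 rose and 3 fell under the KO label (Txnrd1 -1.47, Prdx1 -0.90 and Sqstm1 -0.77). In WT, 1 rose (Srxn1, 1.54) and the 3 that fell were Sqstm1, Prdx1 and Txnrd1 (-0.89, -1.15 and -1.10). Of all genes, 21.6% rose and 17.0% fell under the KO label, and 23.1% rose and 19.7% fell in WT. In lists this small, such counts cannot be told apart from these shares.

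**Figure D5:**
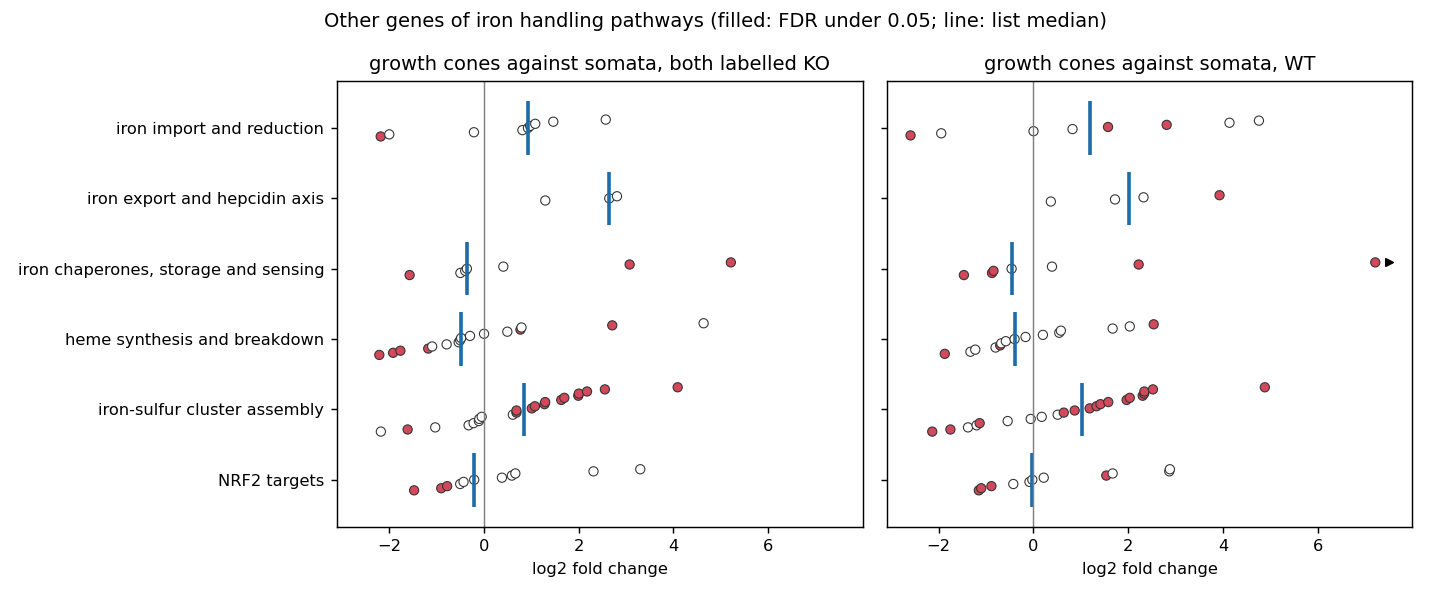
Log2 fold changes of the other iron pathway genes by list between growth cones and somata, under the KO label on the left and in WT on the right. Filled points passed an adjusted p of 0.05, blue lines are list medians, and the point with a black arrow is Epas1 in WT, drawn at the lower limit that 3 counts per soma library give. The iron-sulfur list has 13 filled points on the right of 0 in each panel.

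Of the 28 other genes with the hairpin motif searched above in a 5′ UTR, 23 were tested under the KO label, of which 5 rose and 6 fell, beside 21.6% and 17.0% of all genes. In WT 19 were tested, of which 6 rose and 6 fell, beside 23.1% and 19.7% of all genes. Of the 128 other genes with it in a 3′ UTR, 102 were tested under the KO label, of which 15 rose and 22 fell, and in WT 101 were tested, of which 13 rose and 24 fell. The motif was therefore found on transcripts that were higher, lower and not called.

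Between genotypes, 0 of 70 tested pathway genes passed in growth cones, with 3 at an unadjusted p under 0.05, against 2.13% of all 15419 genes. In somata 0 of 64 passed, with 9 at an unadjusted p under 0.05, against 8.57% of all 14911 genes. DESeq2 called 4 of them, where it called 3.05% of all genes, and limma-voom called 1, where it called 0.925%.

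The genes whose levels were most like Fth1 over the 20 libraries, by Pearson r of log2(CPM + 1) among 10717 genes, were Ppp1r1a (0.998), Rpsa (0.997), Ttr (0.996), Cib2 (0.996) and Hacd1 (0.996), and the value for Ftl1 was 0.997. These libraries form clusters by compartment, so any gene much higher in growth cones gives a high value. Ttr, a choroid plexus marker, averaged 298 CPM in growth cones against 0.212 CPM in somata. Within the 10 growth cone libraries alone, among 10882 genes, the most alike were Umps (0.946), mt-Co3 (0.940), Rps2 (0.940), Dynll1 (0.929) and Ss18l2 (0.929). The value for Ftl1 was 0.858 there, and the lowest among the members was that of Ireb2, -0.68. The libraries share a kit and differ in depth and RNA input, and no test was made.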

How the data were processed

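The authors deposited raw gene counts for 20 libraries in 1 table. The submitters' processing notes name Trimmomatic 0.39, STAR 2.7.1a, featureCounts 1.5.0 and GRCm39. Coordinates in the deposited table equal GENCODE M21 on GRCm38 for 98.8% of 55487 genes, so M21 gave symbols and UTRs. Strand use and how multi-mapped reads were counted are not given in the sources used here. The table had 0 entries that name no gene and 0 unmapped columns.

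Counts were tested with edgeR 4.0.16 in R 4.3.3 (filterByExpr with a minimum count of 10, TMM, quasi-likelihood F test, Benjamini-Hochberg at 0.05), with the 2 groups compared in a fit and all 20 libraries for the interaction. SE is the log2 fold change over the root of F. The code was tested on simulated data. Marker sums are CPM of library totals. Alternatives were other scalings, no filter, DESeq2 1.42.0, limma-voom 3.58.1, all libraries in the fit, an FDR of 0.10, a replicate block, ferritin copies added to their parent, and each library left out.

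The members, lists and tests were chosen with earlier results of these data known. Named were all members, Fth and Ftl symbols, up to 3 genes per list and direction with the lowest p (mean of at least 5 CPM in 1 group), and the 5 genes most like Fth1. A result is not reported here for 1 listed gene, which was taken out of its list after the values were seen, and that list is counted only within the totals. As deviations from group means, same-numbered libraries correlated at 0.0308 to 0.114 in growth cones and 0.0227 to 0.148 in somata. Different-numbered libraries correlated at -0.0807 to 0.0443 and -0.108 to 0.0850. Every growth cone library labelled KO was most like the WT library of its own number. In somata this held for 14 and 25 and not for 22 and 26. The values were not above 0.1 in every pair, so the main tests were not paired. Any variation shared by number was treated only in the replicate block. No replicate libraries agreed within sampling noise.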

Additional observations from a re-analysis of the deposited data

Results flagged for a closer look

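Of 44 groups of 5 values examined (10 genes and the ferritin ratio in 4 groups), 2 held a library far from the others, and chance flags about 1 in 20 groups. Trf stood at 29.6 CPM in growth cone 11 labelled KO, where the next highest library held 1.11 CPM. Slc40a1 stood at 9.99 CPM in WT soma 22, where the next highest held 4.58 CPM. No member passed the test of a genotype effect that differs between compartments.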

How the results depend on the processing

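Fth1, Ftl1 and Aco1 kept their direction and their call between growth cones and somata labelled KO under every alternative run, and so did the ferritin ratio there. The count of members called fell from 5 to 3 with no filter and lay between 3 and 6 with 1 library left out. The Slc40a1 difference changed sign with no filter (-0.033), with limma-voom (-2.04) and with all libraries in the fit (-0.012), and ran from -0.75 to 0.37 with 1 library left out. In WT it was -0.21 with limma-voom and ran from -0.28 to 0.47. Scaling moved the median of all genes in the compartment comparisons by up to 0.19 under the KO label and 0.21 in WT (upper quartile), and by less than 0.02 between genotypes.

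No member was called between genotypes under any alternative, and the signs of small differences turned. In growth cones limma-voom gave -0.037 for Fth1, -0.030 for Ftl1, -0.23 for Ireb2, -0.63 for Ncoa4, -0.22 for Slc11a2 and -0.72 for Slc40a1, and library totals gave -0.014 for Ftl1. With 1 library left out the ranges were -0.11 to 0.41 for Aco1, -0.077 to 0.16 for Fth1, -0.11 to 0.11 for Ftl1, -0.17 to 0.73 for Ireb2, -0.073 to 0.14 for Pcbp1, -0.54 to 0.17 for Tfrc and -0.061 to 0.093 for the ferritin ratio. In somata Ftl1 was 0.0072 with library totals, 0.0022 with no filter and 0.0030 with all libraries. The soma ranges were -0.045 to 0.089 for Ftl1, -0.15 to 0.019 for Ncoa4, -0.058 to 0.073 for Pcbp1, -0.026 to 0.29 for Tfrc and -0.19 to -0.11 for the ferritin ratio. The soma ratio lost its unadjusted p without WT soma 22, 25 or 26 or without soma 14, 15, 22 or 26 labelled KO (exact p up to 0.0952). Other iron genes called in somata were 4 with DESeq2, 1 with limma-voom and 2 at an FDR of 0.10. The shares of all genes called were 3.05%, 0.925% and 1.07% in the same order. The interaction of Ireb2 was -0.017 with limma-voom. The cause of these changes was not tested.

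With a replicate block on the library number, the growth cone differences were -0.017 for Fth1, -0.025 for Ftl1, -0.39 for Ncoa4 and -0.078 for Slc11a2. In somata the block gave 0.10 for Ftl1, -0.0057 for Slc11a2 and -0.17 for the ferritin ratio. All 4 shared numbers had a lower ratio under the KO label, and the exact p of 0.125 is the smallest that 4 pairs allow, so this test could not pass. The block changed no call of a member or of the other iron genes. Low counts of Trf, Slc40a1, Ireb2 and Ncoa4 in growth cones limit what these libraries can show.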
